A study of Mus musculus with 2 samples.

Results

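The nuclear-encoded genes of the mitochondrial respiratory chain and ATP synthase were described in nucleoplasmic RNA of mouse macrophages. They were chosen by name and gene type. A gene was included when GENCODE M21 gave it the type protein_coding and its name began with Nduf, Uqcr, Cox4 to Cox8 or Atp5, or was Sdha, Sdhb, Sdhc or Sdhd. This rule took 94 of the 55536 genes in the tables, of which 22028 were protein-coding. The 94 entries carry 93 names, because Atp5o stands under 2 identifiers and 1 of them had 0 counts. By name stem they comprise 38 entries for complex I subunits, 8 for complex I assembly factors, 4 for complex II, 8 for complex III, 18 for complex IV and 18 for complex V, the ATP synthase. Ndufa4 was kept with its name stem, although it is known as a subunit of complex IV.

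The cells were primary macrophages differentiated from bone marrow of the mouse strain C57BL/6J. All had received Lipid A, the membrane anchor of bacterial lipopolysaccharide, at 100 ng/ml, and were taken after 40 min. Age and sex were not collected, and no genetic modification is named. Total RNA of the nucleoplasmic fraction was depleted of ribosomal RNA and sequenced in 2 libraries, biological replicates 1 and 2, which carry the same donor identifier. The RNA input was 1 µg for replicate 1 but 500 ng for replicate 2, and input cannot be told apart from replicate. Both libraries belong to 1 group. Untreated cells were not analysed here, so every value below is a level and none is a response to Lipid A.

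The respiratory chain passes electrons from NADH through complex I, or from succinate through complex II, to complex III and, by way of cytochrome c, to complex IV, which reduces oxygen. Complexes I, III and IV pump protons across the inner mitochondrial membrane, and complex V uses the gradient to make ATP. All complexes but complex II combine subunits encoded in the nucleus with subunits encoded in mitochondrial DNA. In macrophages, signalling through TLR4, the receptor for Lipid A, is known to shift metabolism over hours from respiration towards glycolysis.

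Levels are given as TPM, a share of all transcripts in a library, corrected for transcript length, that allows genes to be compared with each other. Unless stated, TPM is the authors' alignment-based estimate, and means are given ± SD over both replicates (n = 2). With 1 group there was no contrast to test. Replicates 1 and 2 held 19498110 and 18398456 expected counts of annotated genes. Of these, 11868 (0.0609%) and 10831 (0.0589%) fell to the respiratory chain genes. All 10 macrophage markers examined were detected, with a median of 120 ± 37.9 TPM. None of 20 markers of T cells, B cells, neutrophils, fibroblasts and muscle reached 1 TPM in both replicates, and 10 of the 20 had 0 counts in both. The highest of the 20, the neutrophil gene S100a8, had 1.48 TPM in replicate 1 and 0 in replicate 2. In a second quantification by the authors, derived from FASTQ files, 1 of the 4 T cell markers reached 1 TPM in both replicates. No marker of the other 4 cell types did.

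Most respiratory chain genes were detected, with a median below that of all detected protein-coding genes. Of the 94 entries, 75 (79.8%) had at least 1 TPM in both replicates and are called detected below, against 40.0% of all protein-coding genes. Over all entries the median was 5.32 TPM in replicate 1 and 3.52 in replicate 2, against 0.38 and 0.25 TPM over all protein-coding genes, most of which were not detected. A mean of 10 TPM was reached by 20 of the 94 (21.3%), against 16.8% of all protein-coding genes. Of the detected genes these 20 were 26.7%, against 42.0% of detected protein-coding genes. The median detected respiratory chain gene had 6.16 TPM in replicate 1 and 4.22 in replicate 2. Over all detected protein-coding genes the median was higher in both libraries, 8.64 and 6.12 TPM, and 23 of the 75 genes lay above it in both. In bulk RNA, a low level from few cells and a low level in every cell cannot be told apart.

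**Figure D1:**
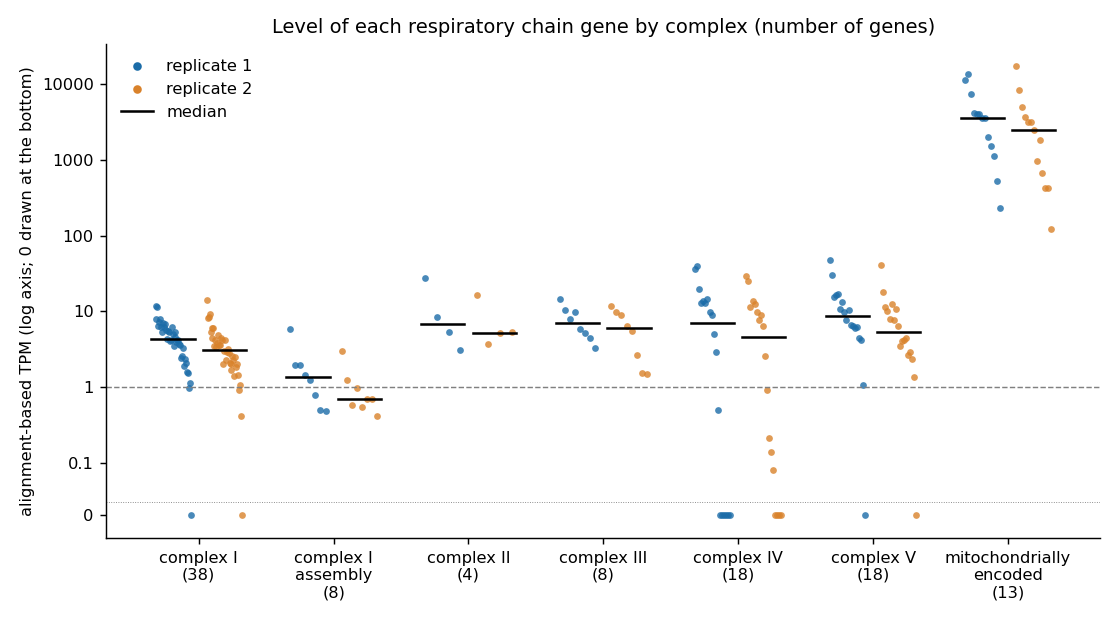
Alignment-based TPM of every gene on a log axis, by complex, with replicate 1 and replicate 2 side by side, 1 point per gene and a black bar at the median; the dashed line marks 1 TPM and genes listed at 0 are drawn at the bottom below the dotted line. Complex I assembly factors sit lowest, with medians of 1.35 and 0.70 TPM, and the 13 mitochondrially encoded subunits sit highest, with medians of 3559 and 2472 TPM.

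Over all entries, the medians of the complexes differed mainly through complex I and its assembly factors. The median complex V gene had 8.71 TPM in replicate 1 and 5.37 in replicate 2, the median complex III gene 6.94 and 5.96, the median complex II gene 6.84 and 5.23, and the median complex IV gene 7.0 and 4.52. The order of these 4 medians differed between the replicates. The median of the complex I subunits, 4.29 and 3.10 TPM, was below those of complexes II to V, and its higher value was under the lowest of theirs. The assembly factors had 1.35 and 0.70 TPM and lay below the complex I subunits in both. Among the 10 detected complex IV genes alone the median was 13.3 and 10.6 TPM, since 8 of the 18 entries were not detected.

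Complex I oxidises NADH and is the largest of the complexes. Of its 38 subunit entries 34 were detected, and their mean TPM ran from 1.5 to 11.0. Its highest gene was Ndufa3, an accessory subunit, with 7.82 TPM in replicate 1 and 14.1 in replicate 2. Ndufa3 rested on 34 and 66 expected counts, and its deposited credibility interval reached from 6.08 to 57.8 TPM in replicate 1 and from 11.5 to 95.9 in replicate 2. Its place at the head of complex I is therefore poorly determined. In both libraries most of its TPM (69.4% and 78.3%) was assigned to Ndufa3-204, a model of 343 nt annotated as a target of nonsense-mediated decay.

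Ndufs1, the largest core subunit and a carrier of iron-sulfur clusters, had 11.5 TPM in replicate 1 and 8.33 in replicate 2. It rested on 528 and 496 counts, far more than Ndufa3. Ndufs3, another core subunit, lay near the complex I median by mean TPM, with 5.06 and 2.98 TPM. The 7 nuclear-encoded core subunits, which carry the redox centres, were detected without exception and had a median of 5.4 TPM in replicate 1 and 3.42 in replicate 2. The other 30 subunit entries, without Ndufa4l2, had lower medians in both libraries, 4.17 and 3.01 TPM. Those medians include undetected genes. Among the 27 detected ones the medians were 4.23 and 3.53 TPM, below the core in replicate 1 but above it in replicate 2. Over all entries the gap was wider in the FASTQ-derived table, a second quantification the authors deposited. There the medians were 5.13 and 5.53 TPM for the core and 2.39 and 2.31 TPM for the other subunits.

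Of the 4 complex I entries not detected, 3 had counts in both libraries. Ndufa11 had 1.53 and 0.91 TPM. Ndufb4 had 0.97 and 1.05 TPM and Ndufb6 had 1.12 and 0.41 TPM. Ndufa4l2, a paralog of Ndufa4 known from hypoxic cells, had 0 counts in both libraries. A count of 0 allows up to 3 counts, which for Ndufa4l2 corresponds to 0.25 TPM in replicate 1 and 0.19 in replicate 2. Its deposited credibility interval reached higher, to 0.89 and 0.79 TPM.

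Assembly factors help to build complex I and are not part of the finished enzyme. Only Ndufaf3 and Ndufaf8 of the 8 were detected. Ndufaf3 had 5.8 TPM in replicate 1 and 2.96 in replicate 2. Ndufaf8 had 1.97 and 1.24 TPM, on 14 and 10 counts. The other 6 were below 1 TPM in at least 1 library but had counts in both. Ndufaf6 had 1.93 and 0.58 TPM, Ndufaf7 1.45 and 0.97, and Ndufaf1 1.24 and 0.54. Ndufaf4 had 0.79 and 0.69 TPM, Ndufaf2 0.49 and 0.70, and Ndufaf5 0.48 and 0.41.

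Complex II oxidises succinate and belongs to both the respiratory chain and the citric acid cycle. All 4 of its subunits were detected. Sdha, the flavoprotein that binds succinate, had 27.3 TPM in replicate 1 and 16.3 in replicate 2, from 1103 and 862 counts. Sdhb, the iron-sulfur subunit, had 8.37 and 3.64 TPM. The membrane anchors Sdhd and Sdhc had 5.31 and 5.16 TPM and 3.07 and 5.30 TPM. Sdha was above the other 3 subunits in both libraries, while the order of those 3 differed between libraries.

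Complex III hands electrons from ubiquinol to cytochrome c, and all 8 of its genes were detected. Uqcrh, the hinge protein near the cytochrome c site, had 14.5 TPM in replicate 1 and 11.6 in replicate 2. Uqcrc1, a core subunit, had 10.5 and 9.76 TPM, and Uqcrb, a ubiquinone-binding subunit, had 8.03 and 9.06 TPM. Uqcr11 had 9.70 and 6.48 TPM. The catalytic iron-sulfur protein Uqcrfs1 had 5.18 and 2.62 TPM, and the core subunit Uqcrc2 had the lowest mean of the complex, with 3.30 and 1.49 TPM. Uqcrc1 and Uqcrc2 encode the paired core proteins of the complex, and the first was above the second in both libraries. These levels do not show protein amounts.

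Complex IV is cytochrome c oxidase, and its nuclear-encoded subunits surround a catalytic core encoded in mitochondrial DNA. Cox7c, a small membrane subunit, had 36.5 TPM in replicate 1 and 29.0 in replicate 2. Cox4i1, the main form of subunit IV, had 39.6 and 25.2 TPM. Cox6c followed with 19.4 and 11.3 TPM. Cox7c and Cox4i1 changed places between the libraries, and both were above Cox6c in each.

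Several complex IV subunits exist as paralogs, and those known from muscle, lung or testis were below the forms known from most tissues. None of them reached 1 TPM in both replicates of either quantification. Cox4i1 held 99.7% ± 0.39 of the TPM of Cox4i1 and Cox4i2, the second of which is known from lung and oxygen sensing and had 0 and 2 counts. In the FASTQ-derived table Cox4i2 had 0.66 and 1.29 TPM, and the Cox4i1 share was 96.6% ± 1.66. Cox6a1 held 99.6% ± 0.57 of its pair with the heart and muscle form Cox6a2, which had 0 counts in replicate 1 and 1 in replicate 2. Cox7a2, which lay as near the complex IV median by mean TPM as Cox8a, held 91.7% ± 1.07 of its pair with the heart and muscle form Cox7a1. Cox7a1 had 2 counts and 1 count. By the FASTQ-derived table Cox7a1 had 0.97 TPM in replicate 1 and 2.14 in replicate 2, and Cox7a2 held 87.0% and 74.8% of the pair. With so few counts the share of Cox7a1 depends on the quantification. In pairs where the restricted form had 0 expected counts in both libraries of the alignment-based table, 3 counts per library serve as its limit. On that basis Cox6b2, known from testis, was at least 24.6-fold lower than Cox6b1. However, the deposited credibility interval of Cox6b2 reached 2.65 TPM in replicate 1 and 2.26 in replicate 2, above the limits of 0.52 and 0.43 TPM used here. Cox6b1 had 12.8 and 13.7 TPM, so the fold is less certain than this limit implies. Cox8b, a muscle form, and Cox8c, a testis form, were at least 8.19-fold and 14-fold lower than Cox8a, and Cox7b2 was at least 2.74-fold lower than Cox7b.

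Of the 8 paralogs with restricted known expression (Cox4i2, Cox6a2, Cox6b2, Cox7a1, Cox7b2, Cox8b, Cox8c and Ndufa4l2), none was detected and 5 had 0 expected counts in both libraries. This list was drawn up after the values had been seen. Cox7b itself, with no restricted expression known, had 2.93 TPM in replicate 1 and 0.92 in replicate 2. Without the 8 paralogs, 75 of the remaining 86 entries (87.2%) were detected.

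Complex V makes ATP. Its catalytic head, F1, is built from the products of Atp5a1, Atp5b, Atp5c1, Atp5d and Atp5e, and 17 of the 18 entries were detected. Atp5b, the catalytic beta subunit, was the highest of all respiratory chain genes, with 48.0 TPM in replicate 1 and 40.8 in replicate 2 from 1062 and 1137 counts. Atp5b lies at chr10:128083273-128090391 of mm10, on the plus strand. Atp5a1, the alpha subunit that alternates with beta in the head, had 30.4 and 17.7 TPM from 1358 and 1064 counts. Summed over all models of each gene, Atp5b was above Atp5a1 in both libraries, and their values did not overlap. Protein-coding models held only 39.4% ± 3.29 of the TPM of Atp5b, against 89.3% ± 2.38 for Atp5a1. The only such model of Atp5b, Atp5b-201, had 20.0 and 15.1 TPM. By alignment it was below the Atp5a1 model Atp5a1-201 in both libraries, which had 23.9 and 15.7 TPM. In the FASTQ-derived table the order of these models differed between replicates, with 8.64 and 7.05 TPM for Atp5b-201 and 8.75 and 6.78 for Atp5a1-201. The other head genes were lower, with 6.39 and 4.20 TPM for Atp5c1, 4.47 and 2.91 for Atp5d and 7.76 and 6.36 for Atp5e, the gene nearest the complex V median. Thus the 5 head genes spanned a 12.0-fold range of mean TPM. Their median was 7.76 TPM in replicate 1 and 6.36 in replicate 2, and that of the other 13 complex V entries was 9.65 and 4.37 TPM. The head genes were thus lower in replicate 1 and higher in replicate 2, and in the FASTQ-derived table they were lower in both, with 2.98 and 3.61 against 5.46 and 3.87 TPM.

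The c subunit, which forms the rotating ring of complex V, is encoded by 3 genes whose mature proteins are the same. Atp5g3 had 15.3 TPM in replicate 1 and 11.4 in replicate 2. Atp5g2 had 6.08 and 4.37 TPM, and Atp5g1 had 1.05 and 1.36 TPM. The order was the same in both libraries, and Atp5g3 held 67.4% ± 1.22 of their sum, Atp5g2 26.3% ± 1.10 and Atp5g1 6.32% ± 2.31. Atp5g2 had 68 counts in replicate 1 and 58.02 in replicate 2, so part of its reads was divided between features. In the FASTQ-derived table Atp5g2 had only 0.29 of its alignment-based mean, and its share depends on the quantification.

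**Figure D2:**
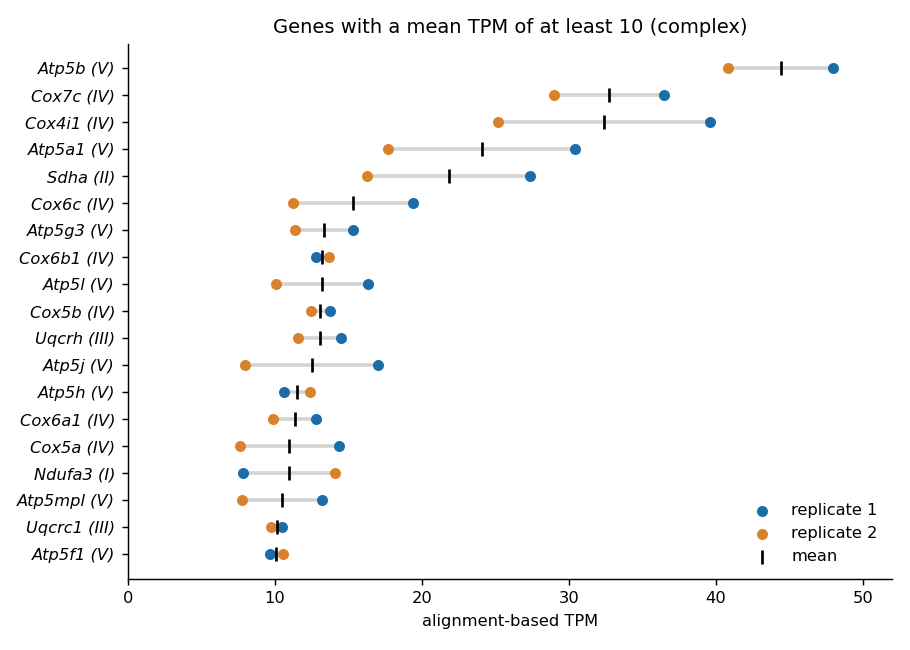
Alignment-based TPM of 19 of the 20 genes with a mean of at least 10, with the complex in brackets, a point for each replicate and a tick at the mean (n = 2). Atp5b leads in both replicates, and 15 of the 19 genes were lower in replicate 2, the exceptions being Ndufa3, Cox6b1, Atp5h and Atp5f1.

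The genes above 10 TPM came mostly from complexes IV and V. Complex V supplied 8 of the 20, complex IV 7, complexes I and III 2 each and complex II 1. The 38 complex I entries thus gave fewer such genes than the 18 of either complex IV or complex V.

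The subunits encoded in mitochondrial DNA were far above their nuclear-encoded partners in the same libraries. The 13 mitochondrially encoded subunits had a median of 3559 TPM in replicate 1 and 2472 in replicate 2, which was 686 ± 24.2 times the median of all 94 nuclear-encoded entries. The ratio of medians was 815 ± 22.6 for complex I, where 7 subunits are mitochondrially encoded, and 555 ± 31.2 for complex III, where only mt-Cytb is. In complex IV it was 128 ± 47.9. In complex V it was 685 in replicate 1 and 1648 in replicate 2, and there it turned on mt-Atp8, which had 11402 and 17254 TPM. By the FASTQ-derived table mt-Atp8 had 2269 and 3969 TPM. In that table the ratio was 580 ± 5.23 over all entries, 624 ± 15.8 for complex I, 410 ± 16.7 for complex III, 295 ± 124 for complex IV and 681 ± 222 for complex V. The ratio of complex IV was the lowest in both tables, but more than 2 times higher from FASTQ files. The lowest mitochondrially encoded subunit, mt-Co2, had 233 and 122 TPM, still above Atp5b in both libraries. The purity of the fraction was not measured, and the source of mitochondrial RNA in it was not tested.

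Factors outside the name rule that build the complexes were at lower levels than the respiratory chain genes. Of 41 listed genes for cytochrome c and for assembly factors of complexes I to V, 25 (61.0%) were detected and 2 had 0 counts. The median of the 41 was 2.17 TPM in replicate 1 and 1.54 in replicate 2, against 5.32 and 3.52 TPM for the 94 respiratory chain entries. Atpif1, the inhibitor of the ATP synthase, was highest with 19.3 and 19.9 TPM. Surf1, an assembly factor of complex IV, had 13.1 and 11.6 TPM. Cycs, which encodes somatic cytochrome c, had 3.39 and 2.87 TPM, and its testis form Cyct had 0 counts in both libraries.

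Among 16 listed regulators of respiratory chain genes 12 were detected. Gabpb1 and Gabpa, which encode the partners of the ETS factor GABP, had 18.6 and 15.2 TPM and 9.00 and 7.54 TPM. Nrf1, the gene of nuclear respiratory factor 1, had 9.98 and 8.25 TPM, and Yy1 had 6.82 and 4.30 TPM. Esrra, an orphan nuclear receptor of mitochondrial genes, had 14.6 and 9.66 TPM. The coactivator gene Ppargc1a had 0.05 and 0.27 TPM, on 5 and 2 counts. Its relatives Ppargc1b and Pprc1 were detected, with 1.01 TPM in both libraries and with 9.06 and 5.65 TPM. Tfam, which encodes the factor that packages mitochondrial DNA, had 0.92 and 0.42 TPM and was not detected.

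Short sequence motifs of such regulators were searched in the promoters of the respiratory chain genes, as a feature that the name rule did not use. RefSeq promoter windows, 250 bases before to 50 bases after the gene start on GRCm38.p6, which is the assembly called mm10, matched 76 of the 94 entries. Among those without a window were Atp5a1, Atp5mpl, Atp5o, Cox4i1, Cox4i2, Cox6a2, Cox6c, Cox8c, Ndufa2, Ndufa4l2, Ndufaf6, Ndufb9, Ndufs1, Sdhc, Uqcrb, Uqcrc2 and Uqcrq. The motifs searched, as exact letters on both strands, were GCGCATGC for NRF1, CCGGAAGT for ETS factors such as GABP, AAGATGGCG for YY1 and GGGCGG for SP1. No overlap between these motifs was removed.

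The NRF1 letters stood in 12 of the 76 promoters (15.8%), against 6.53% of 7185 detected and 4.08% of 16882 protein-coding genes with a window. The YY1 letters stood in 8 (10.5%), against 4.15% and 2.22%. The ETS letters were in 5 (6.58%), against 10.4% and 5.87%. The SP1 letters were in 35 (46.1%), against 70.2% and 50.7%. Over the 63 detected respiratory chain genes with a window, the shares were 14.3% for NRF1, 12.7% for YY1, 7.94% for ETS and 42.9% for SP1. The 12 promoters with the NRF1 letters were those of Atp5g2, Atp5k, Atp5l, Cox6a1, Ndufa11, Ndufa6, Ndufa8, Ndufaf4, Ndufaf5, Sdhb, Uqcr11 and Uqcrc1, which together come from all 6 groups. These shares are descriptions without a test, and a match is not evidence of binding.

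The stretches with the YY1 letters are shown because all lie on the gene's own strand and the first 7 lie just after the gene start. Each line gives 30 bases, 5′ to 3′ on the gene's strand, with the YY1 letters in capitals and coordinates on GRCm38.p6.
Ndufaf8 (chr11:120098934-120098963, plus strand): ggcagggcccAAGATGGCGgcgccctcgag
Ndufc1 (chr3:51408914-51408943, minus strand): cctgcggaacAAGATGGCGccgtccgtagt
Atp5j2 (chr5:145191499-145191528, minus strand): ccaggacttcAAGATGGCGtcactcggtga
Ndufs7 (chr10:80249463-80249492, plus strand): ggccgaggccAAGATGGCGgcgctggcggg
Ndufa9 (chr6:126849096-126849125, minus strand): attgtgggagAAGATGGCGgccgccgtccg
Ndufs6 (chr13:73328433-73328462, minus strand): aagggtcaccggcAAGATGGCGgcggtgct
Ndufs4 (chr13:114388045-114388074, minus strand): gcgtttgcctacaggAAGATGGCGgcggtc
Atp5j (chr16:84835045-84835074, minus strand): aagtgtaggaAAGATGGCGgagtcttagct
All 8 matches were on the gene's own strand, where 76.5% of the matches of detected protein-coding genes were. The first 7 lay after the gene start, as did 59.4% of the matches of detected protein-coding genes. The match of Atp5j lay 88 bases before a RefSeq start that is inside the gene, downstream of its other promoter window. The letters hold ATG, and in 6 of the 8 (Ndufc1, Atp5j2, Ndufs7, Ndufa9, Ndufs6 and Ndufs4) this ATG was a start codon annotated by GENCODE M21. Over detected protein-coding genes the same was true of 45.7% of 247 matches on the gene's strand. A YY1 match and a start codon in these letters cannot be told apart by sequence alone.

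In 4 detected genes the NRF1 letters were present on both strands at once, which makes a palindrome of 10 bases, shown in capitals with the same conventions.
Atp5g2 (chr15:102671070-102671099, minus strand): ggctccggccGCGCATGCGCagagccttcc
Atp5k (chr5:108434430-108434459, minus strand): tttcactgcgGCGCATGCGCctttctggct
Cox6a1 (chr5:115349101-115349130, minus strand): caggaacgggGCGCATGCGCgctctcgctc
Uqcrc1 (chr9:108936668-108936697, plus strand): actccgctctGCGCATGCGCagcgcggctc
The palindrome began 42, 50 and 162 bases before the start in Atp5g2, Atp5k and Cox6a1, and 30 bases after it in Uqcrc1. Uqcr11 was the 1 gene with both ETS and NRF1 letters, which are the capitals in the 90 bases that follow, ending 9 bases after the start.
Uqcr11 (chr10:80406812-80406901, minus strand): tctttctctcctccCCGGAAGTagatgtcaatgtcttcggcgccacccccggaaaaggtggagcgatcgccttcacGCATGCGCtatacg
The levels of these genes ran from 1.60 ± 0.52 TPM for Ndufaf8 to 12.5 ± 6.36 TPM for Atp5j, both of which have the YY1 letters.

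Agreement between the replicates was examined next. The TPM was lower in replicate 2 for 61 of the 75 detected genes. The median log2 ratio of TPM, replicate 2 over replicate 1, was −0.56 over the detected respiratory chain genes and −0.49 over all detected protein-coding genes. The lower values were thus shared with other protein-coding genes, whose TPM summed to 312154 in replicate 1 and 225650 in replicate 2. Counts scaled for library size and composition removed most of this shift. Over the 83 entries with a mean of at least 10 counts the median log2 count ratio was −0.07, and 44 (53.0%) were lower in replicate 2. Over all protein-coding genes the median was 0.02 and 47.8% were lower. Fragments averaged 206 nt in replicate 1 against 230 nt in replicate 2, and the part of this in the TPM difference was not tested.

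**Figure D3:**
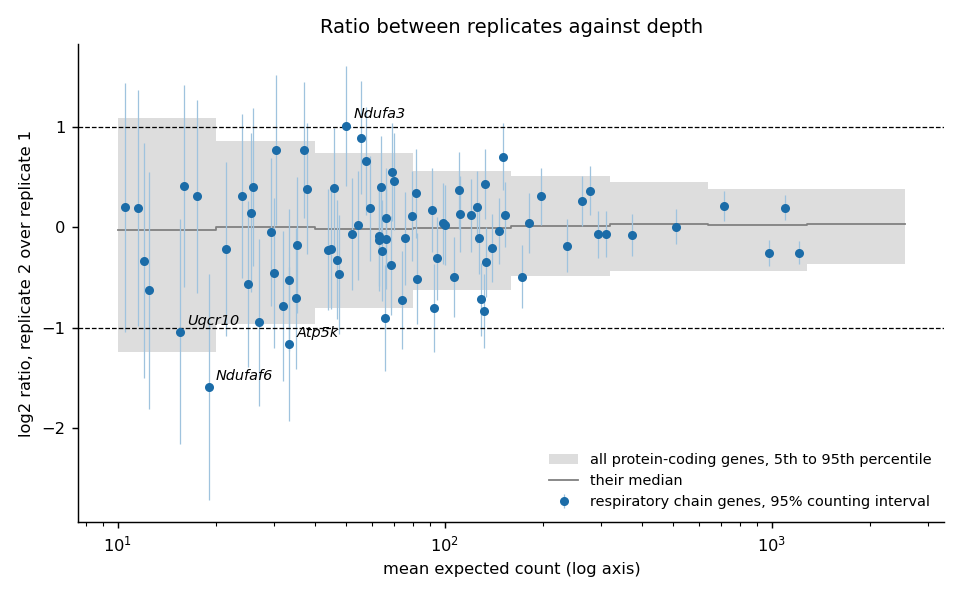
Log2 ratio of scaled counts, replicate 2 over replicate 1, against the mean expected count (log axis) for the 83 genes with at least 10 counts, each with its 95% counting interval; the grey band is the 5th to 95th percentile of all protein-coding genes at that count and the dashed lines mark 2-fold. Only Ndufaf6, Atp5k, Uqcr10 and Ndufa3 are past 2-fold, all with a mean of 50 counts or fewer.

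Past a 2-fold difference in counts lay 4 of the 83 (4.82%), against 2.81% of all protein-coding genes. All 4 were among the 54 entries with 10 to 100 counts (7.41%), against 7.42% of protein-coding genes at that depth. Ndufaf6 had 30 counts in replicate 1 and 8 in replicate 2, Atp5k, a small membrane subunit of complex V, had 48 and 19, and Uqcr10 had 22 and 9. Ndufa3 differed the other way, with 34 and 66. None of the 29 genes with a mean of at least 100 counts was past 2-fold, as were 0.588% of protein-coding genes at that depth.

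Among those 29 deeper genes the spread was moderate and ran in both directions. Atp5j, a peripheral stalk subunit, had the lowest log2 ratio, −0.83 with a counting error of 0.19, from 173 counts in replicate 1 and 90 in replicate 2. Sdhb followed with −0.72 ± 0.19, and Uqcrfs1, Cox5a and Ndufv1 had −0.49, −0.49 and −0.34. The highest was Sdhc with 0.70 ± 0.17, followed by Sdhd with 0.43 ± 0.18. Atp5h, Atp5f1 and Cox7a2l had 0.37, 0.37 and 0.31. The errors here are SE from counting alone. Within complex II, Sdhb and Sdhc thus had ratios of opposite sign.

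The nuclear origin of the RNA made incompletely spliced models of interest. GENCODE annotates some transcript models as retained_intron, and the deposited transcript tables assign TPM to each model. Such models held 19.6% of the TPM of all respiratory chain genes in replicate 1 and 18.6% in replicate 2 (19.1% ± 0.70). Over nuclear-encoded protein-coding genes they held 24.7% ± 0.32. By expected counts in place of TPM the order was the opposite, 22.0% ± 1.26 against 16.9% ± 0.32. By the FASTQ-derived TPM the shares were 26.9% ± 0.78 and 25.9% ± 0.29. The position of the respiratory chain genes relative to other genes thus turned with the unit.

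Complex V had 23.8% ± 1.63 of its TPM in such models, above complexes I to IV in both libraries, which had from 15.4% ± 2.79 in complex IV to 17.9% ± 2.36 in complex II. By expected counts complex V again had the highest share, 30.2% ± 2.81, but complex II had the lowest, 6.04% ± 0.79. By the FASTQ-derived TPM complex V, with 29.1% ± 0.15, could not be told from complex I, with 29.1% ± 2.85, and complex III had the lowest share, 18.3% ± 0.40. The complexes below complex V thus had no stable order. The assembly factors had 36.6% ± 1.82 of TPM, the highest share of all 6 groups, but 18.8% ± 1.86 by expected counts and 14.6% ± 3.76 by the FASTQ-derived TPM, where theirs was the lowest. Of the 75 detected genes, 46 (61.3%) have an annotated retained-intron model, as have 65.1% of detected protein-coding genes. In 3 of the 46 such models held over 50% of the gene's TPM in both replicates, against 12.6% of detected protein-coding genes with such a model.

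**Figure D4:**
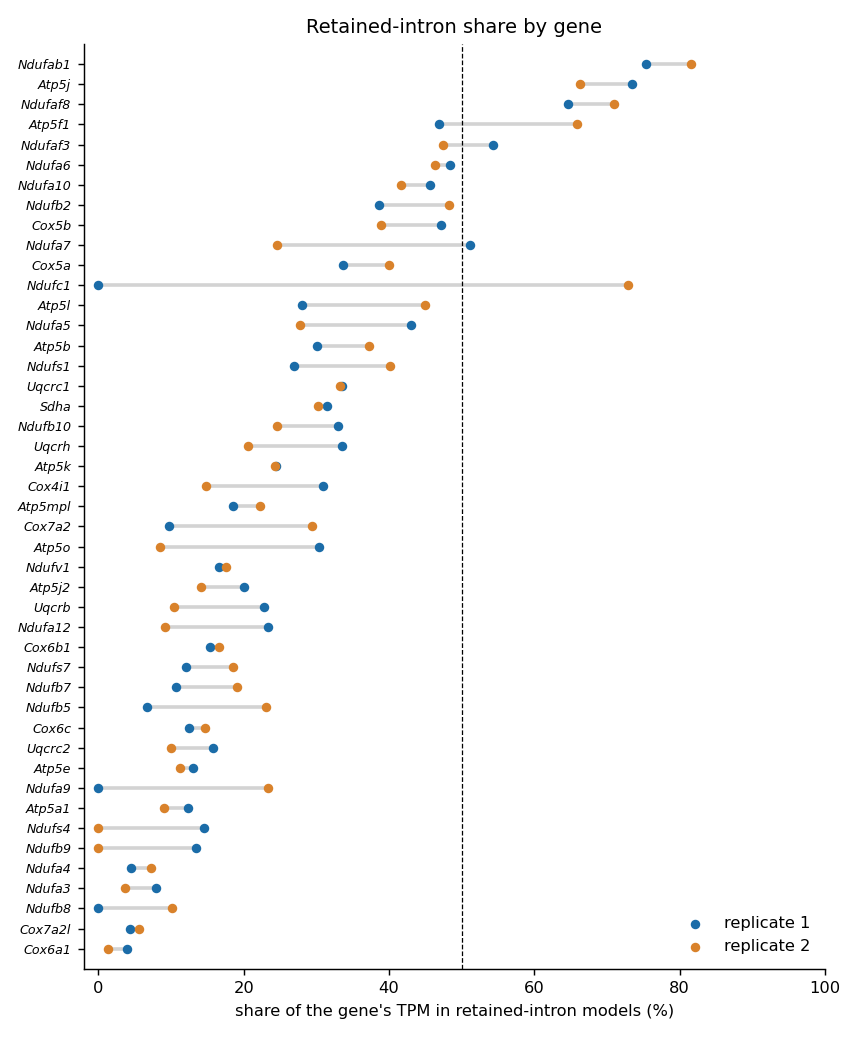
Share of each gene's TPM assigned to retained-intron models, in percent, for 45 of the 46 detected genes that have such a model, with a point per replicate joined by a grey line; the dashed line marks 50%. Ndufab1, Atp5j and Ndufaf8 are above 50% in both replicates, and Ndufc1 runs from 0 to 73.0%.

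Ndufab1, the mitochondrial acyl carrier protein and a complex I subunit, had the highest share, 75.3% in replicate 1 and 81.6% in replicate 2. Its leading model was Ndufab1-204, which has 2 exons and 1653 nt and held 71.13 and 54.30 counts. By the FASTQ-derived table the share of Ndufab1 was 66.3% and 69.4%. Ndufab1 lies at chr7:122085403-122101886 of mm10, on the minus strand.

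Atp5j had 73.5% and 66.3% of its TPM in retained-intron models, and 66.3% and 65.0% by the FASTQ-derived table. It overlaps Gabpa, which lies on the opposite strand and had 561 and 609 counts. Exons of Gabpa cover 29.6% of the model Atp5j-204 and 20.6% of Atp5j-210, and none of the other 3. The strand setting of the quantification is not given in the sources used here, so reads of Atp5j and Gabpa in these stretches may not have been told apart.

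Ndufaf8 had 64.6% and 71.0%, on 5.39 and 4.35 counts of a single model, and 5.77% and 0% by the FASTQ-derived table. Its high share therefore held in the alignment-based table only. Atp5f1, a peripheral stalk subunit of complex V, had 46.9% and 65.9%, and Ndufaf3 had 54.3% and 47.5%. Ndufa6 had 48.4% and 46.3%, most of it in Ndufa6-202, a model with 1 exon that held 46 and 55 counts. From the FASTQ-derived values, 8 of the 46 genes were over 50% in both replicates, against 19.0% of protein-coding genes with such a model, and only Ndufab1 and Atp5j were so in both tables.

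The other genes ranged widely, and some deeply counted ones had steady shares. Sdha had 31.5% and 30.2% of its TPM in retained-intron models, Uqcrc1 33.6% and 33.3%, and Ndufa10 45.6% and 41.7%. These 3 were chosen after their values were seen. The median over the 46 genes was 20.0%, and 7 genes had a mean under 10%. In 5 genes (Ndufb8, Ndufb9, Ndufs4, Ndufa9 and Ndufc1) the share was 0 in 1 replicate and above 0 in the other. Ndufc1 had 14 and 18 counts.

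The FASTQ-derived table gave lower levels for most of these genes. Its mean TPM was below the alignment-based mean in 63 of the 75 detected genes, as in 87.6% of detected protein-coding genes. The median ratio of FASTQ-derived to alignment-based TPM was 0.58 over these genes and 0.62 over detected protein-coding genes. In 18 of the 75 the means were over 2-fold apart, against 20.5% of detected protein-coding genes, and 17 of these 18 were lower in the FASTQ-derived table.

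**Figure D5:**
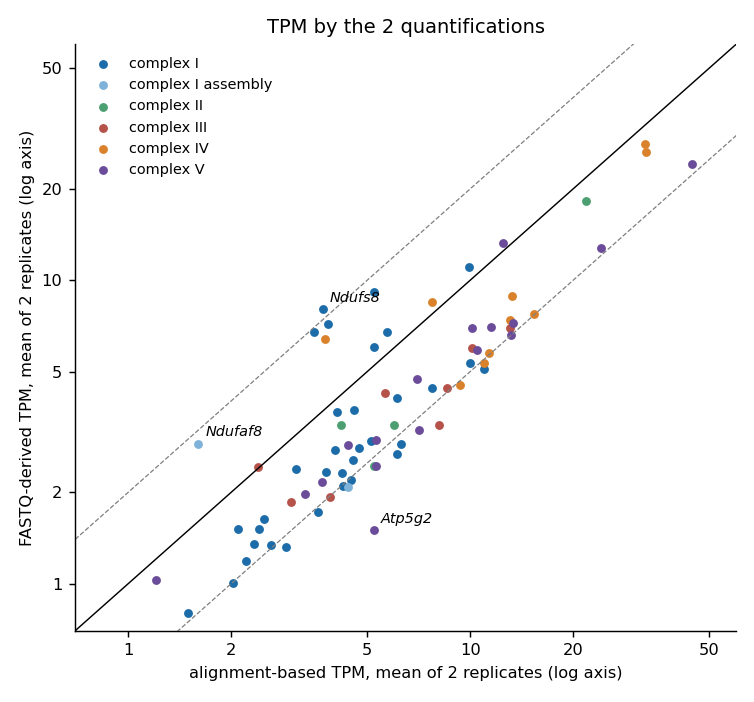
FASTQ-derived against alignment-based TPM, each as the mean of both replicates on a log axis, for the 75 detected genes coloured by complex; the solid line marks equal values and the dashed lines 2-fold. Most points lie between equality and 2-fold lower, with Atp5g2 below the band and Ndufs8 above it.

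The lowest ratios were those of Atp5g2 with 0.29, Uqcr11 with 0.41, Ndufa1 with 0.44, Atp5e with 0.45, Atp5s with 0.46 and Ndufb8 with 0.46. Uqcr11, Ndufa1 and Atp5e are short subunit genes, and Atp5s is known as a coupling factor of complex V. Ndufs8, an iron-sulfur core subunit of complex I, was the 1 gene over 2-fold higher, with 3.70 TPM by alignment and 8.04 TPM from FASTQ files. The leading genes kept high places, since Cox4i1 had 28.1, Cox7c 26.4 and Atp5b 24.2 TPM in the FASTQ-derived table. The order of these 3 differed between tables.

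Some values may hold reads of neighbouring genes. Another annotated gene overlaps 41 of the 94 entries, 13 on the same strand and 33 on the opposite strand, some on both, and in 19 cases that gene itself had at least 1 TPM in both replicates. Cox6c is overlapped by Vps13b on the opposite strand, which had 8128 and 10388 counts against 259 and 213 for Cox6c. Ndufb2 is overlapped by Braf, with 2485 and 2344 counts against 154 and 140, and Ndufaf3 by Impdh2, with 282 and 281 against 108 and 81. Cox4i1 is overlapped on its own strand by Gm20388 and on the other by Emc8. The 41 entries with an overlapping gene had a median of 5.8 TPM in replicate 1 and 3.61 in replicate 2, above the 4.54 and 2.86 TPM of the 53 without one in both libraries. Among detected entries the gap was smaller, with 6.39 and 4.37 TPM for the 35 with an overlapping gene and 5.99 and 4.19 TPM for the 40 without. The difference over all entries thus also holds undetected genes. The part of neighbouring reads in these differences was not tested. Counts were whole numbers, to within 0.005, in both libraries for 77 entries and fractional for 17.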

How the data were processed

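Total RNA-seq of nucleoplasmic RNA was analysed in both libraries of 1 group. The deposited notes name mm10 as the build and GENCODE M21 as the annotation. Which aligner, quantifier and strand option were used is not given in the sources used here. The authors' alignment-based tables give, per the file headers, expected counts, TPM, FPKM and the bounds of a 95% credibility interval of TPM, which was treated as a signal. The deposited FASTQ-derived tables give estimated counts and TPM. TPM is scaled over every feature of a table. Genes were matched to this annotation by identifier.

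Detected means at least 1 TPM in both replicates. Replicate ratios used expected counts rounded to whole numbers, TMM scaling and a prior count of 2 in edgeR 4.0.16 (R 4.3.3) over genes with a mean of at least 10. Where a library had 0 counts, 3 counts served as its limit. Intervals cover counting error only. The replicates share a donor identifier, so their spread may be smaller than that between animals. Median credibility intervals spanned 57.1% and 61.0% of TPM for detected respiratory chain genes.

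Genes named were the 3 highest, one near the median and the undetected ones of each complex, extremes of the ratio, the retained-intron share and the FASTQ comparison, and paralogs. Genes named beside overlaps, promoters and roles were chosen after their values were seen. The members and lists were chosen with earlier results of these data known. 1 gene is counted but not reported by name here.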

Additional observations from a re-analysis of the deposited data

How the results depend on the processing

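With 1 group of 2 libraries no contrast could be tested, and depth limits mainly the genes under 100 counts. No paired analysis was possible because there is only 1 group. The count of detected genes, 75, was 86 at 0.1 TPM, 32 at 5 TPM, 72 in the FASTQ-derived table and 79 by FPKM, and from 76 to 81 with 1 replicate left out. The median of all entries, 4.42 TPM, became 2.77 in the FASTQ-derived table, 16.3 when TPM was rescaled over protein-coding genes and 5.19 over detected entries, and ranged from 3.52 to 5.32 with 1 replicate left out. FASTQ-derived medians were 2.55 TPM for complex I, 3.42 for complex II, 3.76 for complex III and 4.12 for complex V, each lower by more than 1 SD. Those of complex IV (4.89) and of the assembly factors (1.01) were within 1 SD. The retained-intron share, 19.1%, was 22.0% by expected counts, 26.9% in the FASTQ-derived table and 27.0% over genes with such a model, and ranged from 18.6% to 19.6% with 1 replicate left out. The causes were not tested. The median log2 ratio between replicates, −0.07, ran from −0.08 to −0.03 under 5 alternatives and was 0.01 over genes with at least 100 counts. The counting interval of a typical single gene reached 0.492 either way. It is too wide to judge shifts in a median over many genes. With 1 replicate left out there is no ratio. Of 59 named genes, 38 moved by more than 1 SD in the FASTQ-derived table and 42 were lower there.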

Other observations

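Entries whose names match the same stems but whose gene type is not protein_coding were left out above. Ndufb1-ps, annotated as a bidirectional promoter lncRNA, had 22.6 TPM in replicate 1 and 9.54 in replicate 2 from 295 and 154 counts, and 18.4 and 11.7 TPM in the FASTQ-derived table. Among the nuclear-encoded complex I subunit entries described above, these alignment-based values are higher than all in replicate 1, and below only Ndufa3 in replicate 2. Ndufb4c, a processed pseudogene, had 2.43 and 1.98 TPM, against 0.97 and 1.05 TPM for the protein-coding gene Ndufb4. By expected counts the order was the opposite, with 9.70 and 9.15 for Ndufb4c and 11.30 and 11.85 for Ndufb4, all fractional. In the FASTQ-derived table Ndufb4c had 0.91 and 0.86 TPM and Ndufb4 0.65 and 1.10, so their order differed between replicates. The processed pseudogene Ndufa11b had 0 counts in replicate 1 and 1 in replicate 2, and 10 more processed pseudogenes had 0 counts in both libraries.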
